A study of Rattus norvegicus with 6 samples.

Results

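The genes described here encode neuronal RNA-binding proteins and splicing regulators of the Elavl, Nova, Rbfox, Ptbp and Srrm families. They were chosen by symbol from 10 named genes, taking each probe set (the group of array probes summarised to 1 value) whose annotation named exactly 1 gene. This gave 8 probe sets for 8 genes, Elavl1 to Elavl4, Nova1, Rbfox1, Ptbp1 and Ptbp2, out of 29215 probe sets. Nova2 and Srrm4 were not matched by a probe set naming 1 gene and were not analysed here. Transcripts were measured in cortical neurons of Sprague-Dawley rat embryos at embryonic day 18, cultured for 3 days in NB-N2 medium. In the first group of 3 arrays the neurons had received C1q, a protein of the complement system, at 10 nM for 3 h, and in the second group of 3 arrays they were untreated. The labels number the arrays 1 to 3 in each group and do not say whether they came from separate cultures, so p-values reflect spread among these arrays alone, and that spread could be technical.

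Elavl proteins bind AU-rich stretches of transcripts, often in the 3′ untranslated region, and favour their stability and translation. Elavl1 (HuR) is found in most tissues, whereas Elavl2 (HuB), Elavl3 (HuC) and Elavl4 (HuD) are typical of neurons and also act on splicing. Nova1 is a KH-domain splicing regulator of neurons, and Rbfox1 binds the sequence UGCAUG beside exons that it promotes or represses. Ptbp1 binds pyrimidine-rich RNA and holds back neuronal exons in non-neuronal cells and progenitors, including an exon of Ptbp2, whose own protein replaces it as neurons form. Each gene had 1 value per array here, so inclusion of single exons was not measured.

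The RefSeq windows before the start sites of Ptbp1 and Ptbp2, and of Elavl1 and Elavl4, are shown because each pair sets a broadly expressed gene beside a neuronal relative. Each is the 250 bases before the start, 5′ to 3′ on the gene's strand, in the GRCr8 build. Capitals mark the GC box GGGCGG and the CCAAT box on either strand. No occurrence of one overlapped the other in these windows.
Ptbp1 (chr7:10502958-10503207, minus strand): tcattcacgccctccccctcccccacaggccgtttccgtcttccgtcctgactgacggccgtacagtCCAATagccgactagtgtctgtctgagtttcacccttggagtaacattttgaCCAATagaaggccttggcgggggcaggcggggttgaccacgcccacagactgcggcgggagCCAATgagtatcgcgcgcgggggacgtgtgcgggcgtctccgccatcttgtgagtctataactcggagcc
Ptbp2 (chr2:210558278-210558527, minus strand): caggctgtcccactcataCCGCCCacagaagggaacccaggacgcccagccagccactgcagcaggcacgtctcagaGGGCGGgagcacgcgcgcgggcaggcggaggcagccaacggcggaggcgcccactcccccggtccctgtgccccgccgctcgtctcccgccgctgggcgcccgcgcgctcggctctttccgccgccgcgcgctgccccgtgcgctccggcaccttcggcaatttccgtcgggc
Elavl1 (chr12:7482626-7482875, minus strand): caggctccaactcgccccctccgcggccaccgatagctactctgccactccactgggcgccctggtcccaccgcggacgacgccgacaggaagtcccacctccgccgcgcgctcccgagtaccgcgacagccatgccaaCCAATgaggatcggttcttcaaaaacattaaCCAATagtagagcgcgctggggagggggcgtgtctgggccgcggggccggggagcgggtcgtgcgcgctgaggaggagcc
Elavl4 (chr5:130367664-130367913, minus strand): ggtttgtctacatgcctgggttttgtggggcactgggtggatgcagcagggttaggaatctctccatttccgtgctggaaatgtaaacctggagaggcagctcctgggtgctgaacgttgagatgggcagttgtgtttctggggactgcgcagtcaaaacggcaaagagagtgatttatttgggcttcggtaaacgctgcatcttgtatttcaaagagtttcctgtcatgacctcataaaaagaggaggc
The Ptbp1 window held 3 CCAAT boxes and 0 GC boxes, and the Ptbp2 window 0 CCAAT boxes and 2 GC boxes. The Elavl1 window held 2 CCAAT boxes, and the Elavl4 window held neither motif.

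Windows were found for all 10 genes, including Nova2 and Srrm4. GC boxes were present in 4 of the 10 windows, against 30.47% of 33469 RefSeq windows of this length. CCAAT boxes were present in 4 of 10, against 34.02% of all windows, and the TATA box TATAAA, searched on both strands, in 1 of 10, that of Srrm4, against 12.93%. G and C bases made up 75.6% of the window in Ptbp2 and in Elavl3, against a median of 51.2% over all windows. The ratio of observed to expected CpG was 0.972 for Ptbp2, 0.899 for Ptbp1 and 0.960 for Elavl1, against a median of 0.383. Elavl4 and Rbfox1 had the fewest CpG of the 10, at ratios of 0.422 and 0.263. These are descriptions of the sequence at 1 annotated start per gene. The arrays did not measure promoter use.

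**Figure D1:**
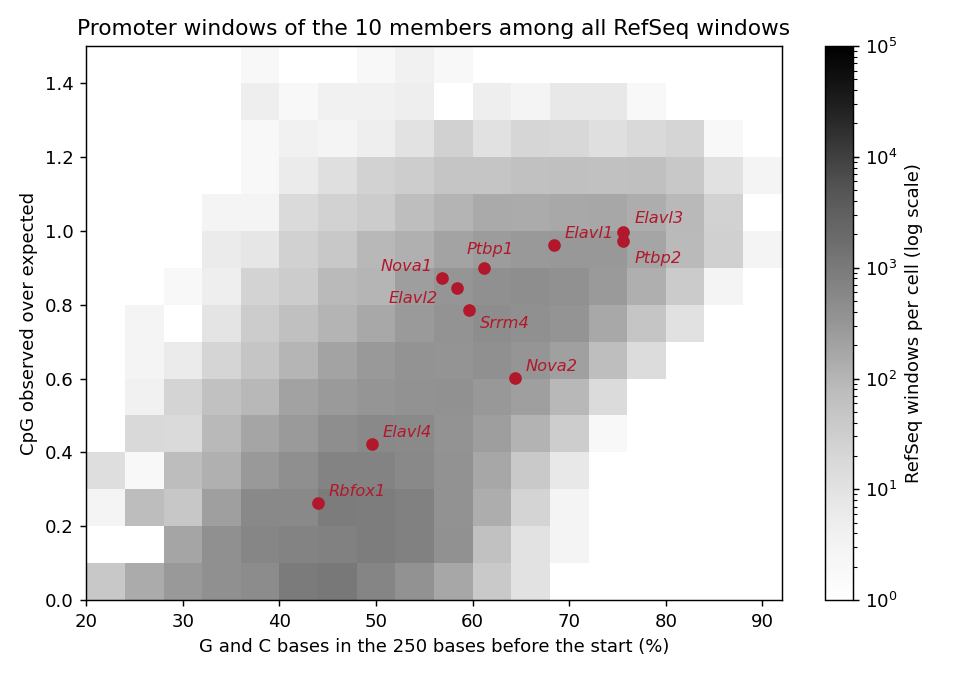
Share of G and C bases (x axis, %) and CpG observed over expected (y axis, ratio) in the 250 bases before the start, for the 10 genes (red points) and all 33469 RefSeq windows (grey cells, number of windows on a log scale). Elavl4 and Rbfox1 lie at ratios of 0.422 and 0.263, and Elavl3 and Ptbp2 at 75.6% G and C.

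Array medians of the deposited intensities were 149, 147 and 150 on C1q arrays 1 to 3 and 150, 155 and 150 on untreated arrays 1 to 3. Untreated array 1 held the highest value of 41.98% of the tested probe sets, and untreated array 2 the lowest value of 29.32%. Markers of neurons ranged widely in brightness. The brightest was Dcx, at 8672 ± 299 after C1q and 8601 ± 336 untreated (SD, n = 3 each). Next came Tubb3, at 7952 ± 245 after C1q and 8078 ± 408 untreated (SD, n = 3 each). The dimmest was Slc17a6, at 334 ± 15.4 after C1q and 348 ± 29.5 untreated (SD, n = 3 each). All 15 neuron markers on the array were tested, with summed intensities of 49202 to 51492 on C1q arrays and 49201 to 53529 on untreated arrays. The 8 radial glia markers on the array summed to 8453 to 8720 on C1q arrays and 8749 to 8958 on untreated arrays, without overlap between the groups. Divided by the array medians these sums ran from 56.6 to 59.1 on C1q arrays. On untreated arrays 1 to 3 they were 59.7, 56.3 and 59.6, so the overlap rested on untreated array 2, which had the highest median. Of the 7 radial glia markers tested 0 passed or had groups apart. Radial glia are progenitors, and the part of these sums in the Ptbp1 and Elavl1 values was not tested. In bulk RNA, fewer cells of a type and less RNA per cell cannot be told apart. The 8 astrocyte markers on the array summed to 3365 to 3431 on C1q arrays and 3268 to 3534 on untreated arrays. Of these 7 were tested, and only Gfap lay below the test filter, at a mean of 47.6 after C1q and 51.7 untreated. The brightest, Aldoc, averaged 1567 after C1q and 1606 untreated and made up 45.2% to 47.8% of the sums. Of 8 microglia markers 6 lay below the filter, and the list summed to 551 to 572 on C1q arrays and 537 to 557 on untreated arrays. Divided by the array medians the microglia sums were 3.68 to 3.85 on C1q arrays and 3.57 to 3.60 on untreated arrays, without overlap. Of the 2 microglia markers tested 0 passed or had groups apart, with 1 mean higher after C1q and 1 lower. The 6 oligodendrocyte lineage markers on the array summed to 896 to 967 on C1q arrays and 912 to 1033 on untreated arrays. The 11 endothelial, mural and meningeal markers summed to 7383 to 7664 on C1q arrays and 7598 to 8008 on untreated arrays, of which the smooth muscle actin gene Acta2 alone made up 87.6% to 88.6%. In that list 5 of the 11 lay below the filter.

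None of the 8 RNA-binding protein genes passed the test for a difference after 3 h of C1q. The test was limma's on log2(intensity + 16), with a call at an adjusted p under 0.05 over 17529 probe sets, the brightest 60% of the table. All 8 genes were among them. The adjusted p was 0.9999 for each, 0 of 8 had an unadjusted p under 0.05, and over all tested probe sets 0% were called higher and 0% lower, with 2.49% at an unadjusted p under 0.05. Estimated fold changes, C1q over untreated, ran from 0.971 for Ptbp2 to 1.04 for Ptbp1. The 95% intervals of all 8 lay between 0.893, the lower bound for Elavl1, and 1.15, the upper bound for Ptbp1. Fold changes on this scale understate changes of dim genes, and the number of arrays limits their precision.

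Signals of all 8 genes were well up in the range of the array. By mean untreated intensity Elavl3 ranked 599th of 29215 probe sets, Ptbp2 618th, Elavl2 1243rd, Elavl1 1558th, Elavl4 1988th, Rbfox1 2727th, Ptbp1 5126th and Nova1 5505th. The ranges of the neighbours Elavl3 and Ptbp2 overlapped, and on untreated array 3 Ptbp2 was the brighter. Those of Ptbp1 and Nova1 overlapped too, but within each array Ptbp1 was the brighter. Probes differ in how strongly they bind, so this is an order of brightness and not of transcript amount. Signal over background is unknown, since no detection calls were used.

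Elavl1, the ubiquitous family member, had intensities of 2336, 2404 and 2233 on C1q arrays 1 to 3 and 2609, 2268 and 2286 on untreated arrays 1 to 3. Untreated array 1 was the highest of the 6, and the other untreated arrays lay within the range of the C1q arrays. The means were 2324 ± 86.4 after C1q and 2387 ± 192 untreated (SD, n = 3 each), which is 0.975-fold (95% interval 0.893 to 1.07). Without untreated array 1 the log2 difference was 0.03 in place of -0.04.

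Elavl2, a neuronal member, read 2745, 2746 and 2738 on C1q arrays and 2781, 2703 and 2780 on untreated arrays. All 3 C1q values lay inside the untreated range. Its fold change was 0.996 (95% interval 0.937 to 1.06). The highest of the 6 arrays was 1.03 times the lowest, and its pooled within-group SD, 0.0166 on the log2 scale, ranked at the 0.371 percentile of the tested probe sets. The groups averaged 2743 ± 4.13 after C1q and 2755 ± 44.7 untreated (SD, n = 3 each).

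Elavl3, whose protein is a widely used marker of young neurons, read 4354, 4151 and 4218 on C1q arrays and 4356, 4148 and 4148 on untreated arrays. The groups overlapped almost fully, with array 1 the highest in each. Means were 4241 ± 104 after C1q and 4217 ± 120 untreated (SD, n = 3 each), which is 1.01-fold (95% interval 0.943 to 1.07).

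Elavl4, whose protein binds transcripts of neurite growth such as Gap43, read 1991, 2162 and 1987 on C1q arrays and 2190, 1983 and 1971 on untreated arrays. One array of each group, C1q array 2 and untreated array 1, stood above the other 4. Means were 2047 ± 100.3 after C1q and 2048 ± 123 untreated (SD, n = 3 each), and the interval of the fold change was 0.919 to 1.09. Without untreated array 1 the log2 difference was 0.05, and without C1q array 2 it was -0.04.

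Nova1, the neuronal KH-domain splicing regulator, read 861, 893 and 899 on C1q arrays and 870, 863 and 839 on untreated arrays. C1q arrays 2 and 3 lay above all untreated arrays, and C1q array 1 lay within their range. Means were 884 ± 20.6 after C1q and 857 ± 16.4 untreated (SD, n = 3 each), which is 1.03-fold (95% interval 0.955 to 1.11). Rbfox1, which promotes or represses exons in neurons and muscle, read 1660, 1637 and 1613 on C1q arrays and 1692, 1558 and 1643 on untreated arrays. Its C1q values all lay inside the untreated range. Means were 1637 ± 23.1 after C1q and 1631 ± 68.2 untreated (SD, n = 3 each), and the interval of the fold change was 0.934 to 1.08.

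Ptbp1, the repressor of neuronal exons, read 933, 1020.4 and 958 on C1q arrays and 1006, 931 and 861 on untreated arrays. The groups overlapped, with C1q array 2 the highest and untreated array 3 the lowest. Means were 971 ± 44.9 after C1q and 932 ± 72.9 untreated (SD, n = 3 each), which is 1.04-fold (95% interval 0.945 to 1.15). The log2 difference was 0.06, and it was 0.00 without untreated array 3, 0.02 without C1q array 2, 0.11 without untreated array 1 and 0.14 with array weights.

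Ptbp2, its neuronal counterpart, read 4052, 4038 and 4026 on C1q arrays and 4179, 4080.01 and 4223 on untreated arrays. All 3 C1q values lay below all 3 untreated values, which held for 1 of the 8 genes and, in either direction, for 5.72% of all tested probe sets. Means were 4039 ± 13.0 after C1q and 4161 ± 73.1 untreated (SD, n = 3 each), which is 0.971-fold (95% interval 0.915 to 1.03). The groups overlapped once values were quantile normalized or median centred. Under median centring untreated array 2, which had the highest array median, fell below the C1q arrays. Untreated arrays 1 and 3 stayed above them. With either rescaling the number of genes whose groups did not overlap was 0, where 7.52% and 4.16% of all tested probe sets had groups apart. It was 2 without C1q array 1, 4 without untreated array 1 and 2 without untreated array 2, where 12.04%, 17.9% and 24.8% of all tested probe sets had groups apart, in that order.

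**Figure D2:**
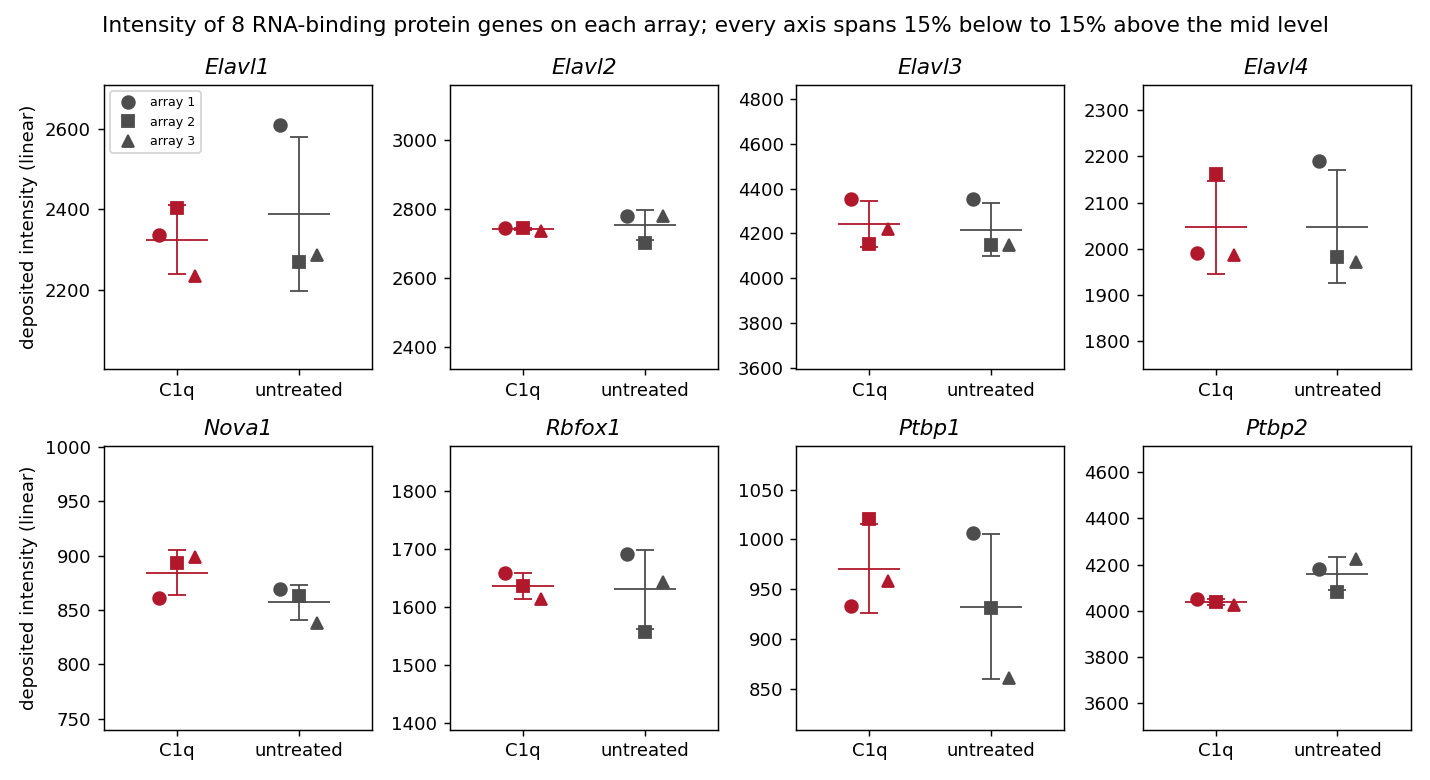
Deposited intensity (y axis, linear, spanning 15% below to 15% above each gene's mid level) of the 8 genes in C1q-treated (red, left) and untreated (grey, right) neurons. Symbols are arrays 1 to 3, bars the mean ± SD (n = 3 each). The groups are apart for Ptbp2, at 4026 to 4052 after C1q and 4080.01 to 4223 untreated, and overlap for the other 7 genes.

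Ratios within an array cancel a shift of the whole array, and 4 were compared between groups after the values had been seen. Ptbp1 over Ptbp2 was 0.230, 0.253 and 0.238 on C1q arrays and 0.241, 0.228 and 0.204 on untreated arrays, which overlapped. The ratio averaged 0.240 ± 0.0114 after C1q and 0.224 ± 0.0188 untreated (SD, n = 3 each), with a two-sided exact permutation p of 0.40 and 0.667 adjusted over the 4 ratios. Elavl4 over Elavl1 was 0.852, 0.899 and 0.890 on C1q arrays and 0.839, 0.874 and 0.863 on untreated arrays (exact permutation p = 0.30, adjusted 0.667). Elavl3 over Elavl1 averaged 1.83 ± 0.0877 after C1q and 1.77 ± 0.0884 untreated (SD, n = 3 each, exact permutation p = 0.50, adjusted 0.667). Elavl2 over Elavl1 averaged 1.18 ± 0.0425 after C1q and 1.16 ± 0.0807 untreated (SD, n = 3 each, exact permutation p = 0.80, adjusted 0.80). With 3 arrays against 3 the smallest p this test can give is 0.10. With single arrays left out, the log2 difference of Ptbp1 over Ptbp2 ran from 0.04 without untreated array 3 to 0.15 without untreated array 1, against 0.10 with all arrays. That of Elavl2 over Elavl1 ran from -0.03 without untreated array 1 to 0.07 without untreated array 3, against 0.03. Those of Elavl3 and Elavl4 over Elavl1 ran from 0.00266 to 0.0843 and from 0.0193 to 0.0589, against 0.04 for each. The levels of 2 probe sets are on different scales, so only the difference of a ratio between groups can be read.

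Of the 8 genes 4 had a higher mean log2 value after C1q (Elavl3, Nova1, Rbfox1 and Ptbp1) and 4 a lower one, at a median log2 difference of 0.00. Over all tested probe sets 36.7% had a higher mean, at a median of -0.02. With quantile normalization or median centring 6 of the 8 were higher, as Elavl2 and Elavl4 turned to a positive sign, and 50.8% or 55.4% of all tested probe sets were higher. Leaving out untreated array 1 gave 7 higher, with 50.2% of all tested probe sets higher, and leaving out untreated array 2 gave 2, with 31.0%. Untreated array 1 was the highest array for 5 of the 8 genes, Elavl1 to Elavl4 and Rbfox1. Untreated arrays 2 and 3 were each the lowest for 3 genes, and C1q array 3 for the other 2.

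**Figure D3:**
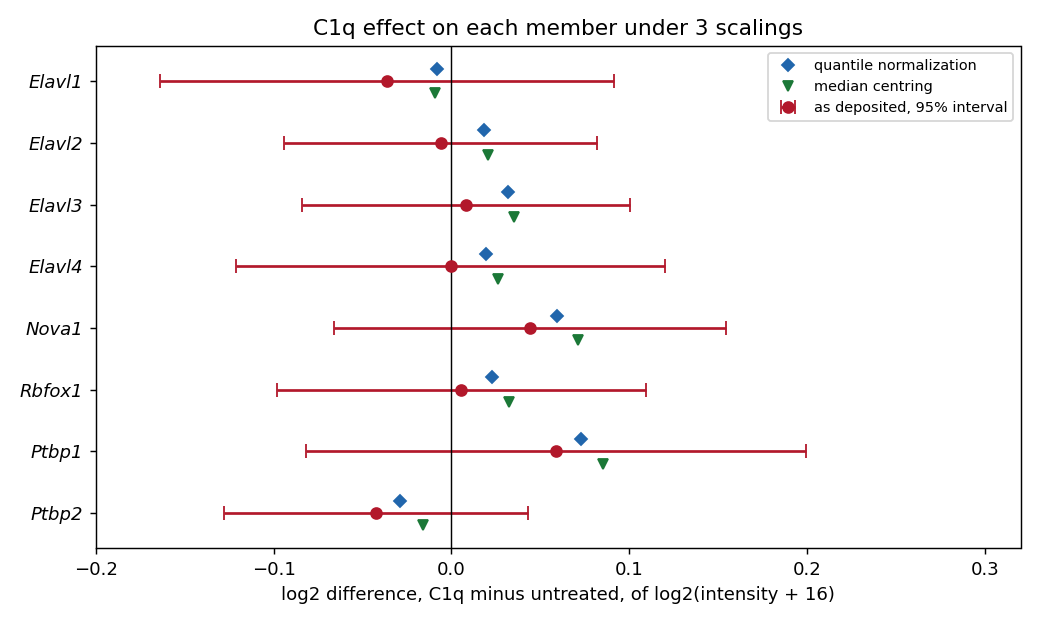
Log2 difference, C1q minus untreated (x axis), for each gene (y axis) with its 95% interval from limma on the values as deposited (red), and the estimates after quantile normalization (blue) and median centring (green). Every interval spans 0, and Elavl2 and Elavl4 turn to a positive sign under both rescalings.

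The gene whose pattern over the 6 arrays was closest to each member was found by the root mean square distance of log2 values after subtracting each gene's mean, over 10301 probe sets. It was Prpf19, a splicing factor gene, for Elavl3 (distance 0.00559, against an own spread of 0.0312). It was Epb41 for Elavl1 (0.00843 against 0.0744), Pcdh1 for Ptbp1 (0.00967 against 0.0798) and Laptm4a for Ptbp2 (0.00732 against 0.0260). The closest genes were Elac1 for Elavl2 (0.00748 against 0.0139) and Entpd6 for Elavl4 (0.00804 against 0.0631). They were Gabra3 for Rbfox1 (0.00637 against 0.0367) and Rnf41 for Nova1 (0.0102 against 0.0332). These are matches over 6 arrays among many genes.

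Related RNA-binding protein genes did not pass either. The list labelled neuronal relatives has 34 genes and also holds RNA-binding protein genes that are not typical of neurons. Of the 34, 26 were on the array and 24 were tested. In either direction 0 passed, with 8 means higher and 16 lower, and a median log2 difference of -0.01. Rbfox2, the broadly expressed paralog of Rbfox1, averaged 4512 ± 146 after C1q and 4527 ± 149 untreated (SD, n = 3 each). Rbfox3, which encodes the neuronal antigen NeuN, had a fold change of 0.997 (95% interval 0.930 to 1.07). Ptbp3 averaged 775 ± 42.7 after C1q and 756 ± 47.5 untreated (SD, n = 3 each). These 3 were picked as the remaining family members and not by the rule. Rbms1, at a fold change of 1.08 (95% interval 0.922 to 1.27), and Rbpms, at 0.926 (0.765 to 1.12), were the ends of the list. With quantile normalization 15 means were higher and 9 lower, and with median centring 17 and 7. Over all tested probe sets 36.7% of means were higher as deposited, 50.8% after quantile normalization and 55.4% after median centring.

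Of 38 SR proteins and general splicing factors, all tested, 0 passed, and 13 means were higher and 25 lower. The counts were 16 and 22 after quantile normalization and 22 and 16 after median centring. Over all tested probe sets 36.7%, 50.8% and 55.4% of means were higher, in the same order. Of the 38, 1 had an unadjusted p under 0.05, against 2.49% of all tested probe sets, and 3 had groups apart (Rbm17, Srsf5 and U2af1, all lower after C1q, with Srsf5 and U2af1 named after their values were seen), against 5.72%. The first of these, Rbm17, a gene for a spliceosome protein, read 1988, 1951 and 1925 on C1q arrays and 2144, 2020.5 and 2142 on untreated arrays. Its fold change was 0.931 (95% interval 0.870 to 0.996, adjusted p = 0.9999). The other end was Srsf12, an SR protein gene, at 1.05 (0.895 to 1.24).

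Of 22 tested hnRNP protein genes, which encode general binders of nuclear transcripts, 0 passed, 2 means were higher and 20 lower, at a median log2 difference of -0.05, against -0.02 over all tested genes. After quantile normalization or median centring 4 were higher and 18 lower, at a median of -0.02 in both. With any single array left out 19 to 22 were lower, where 49.8% to 69.0% of all tested probe sets were. Over all tested probe sets 63.3% were lower as deposited, 49.2% after quantile normalization and 44.6% after median centring. Groups were apart for 2 of the 22, Hnrnpdl and Tardbp, both lower after C1q and both named after their values were seen, against 5.72% of all tested probe sets. The ends of the list were Hnrnpa2b1, at a fold change of 0.935 (95% interval 0.872 to 1.003), and Hnrnph2, at 1.02 (0.943 to 1.11). Hnrnpa2b1 read 4444, 4444 and 4206 on C1q arrays and 4837, 4438 and 4734 on untreated arrays, with untreated array 2 inside the range of the C1q arrays.

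Of 22 tested genes for proteins of RNA transport, stability and translation 0 passed, with 6 means higher and 16 lower, 13 and 9 after quantile normalization, and 12 and 10 after median centring. Fold changes ran from 0.945 for Pabpc4, a poly(A)-binding protein gene, to 1.02 for Stau1, a gene for a transported double-stranded RNA binder. Of 36 tested transcripts described as bound, stabilised or spliced by the 10 regulators 0 passed, with 17 means higher and 19 lower, 22 and 14 after quantile normalization, and 24 and 12 after median centring. Their ends were the immediate early gene Fos, at 0.909 (95% interval 0.797 to 1.04), and Camk2d, a calcium/calmodulin kinase gene, at 1.07 (0.951 to 1.21). Part of this list is described as spliced by the regulators, and a change of exon use cannot be read from 1 value per gene. Beside the counts of both lists, 36.7% of all tested probe sets had a higher mean as deposited. The share was 50.8% after quantile normalization and 55.4% after median centring.

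**Figure D4:**
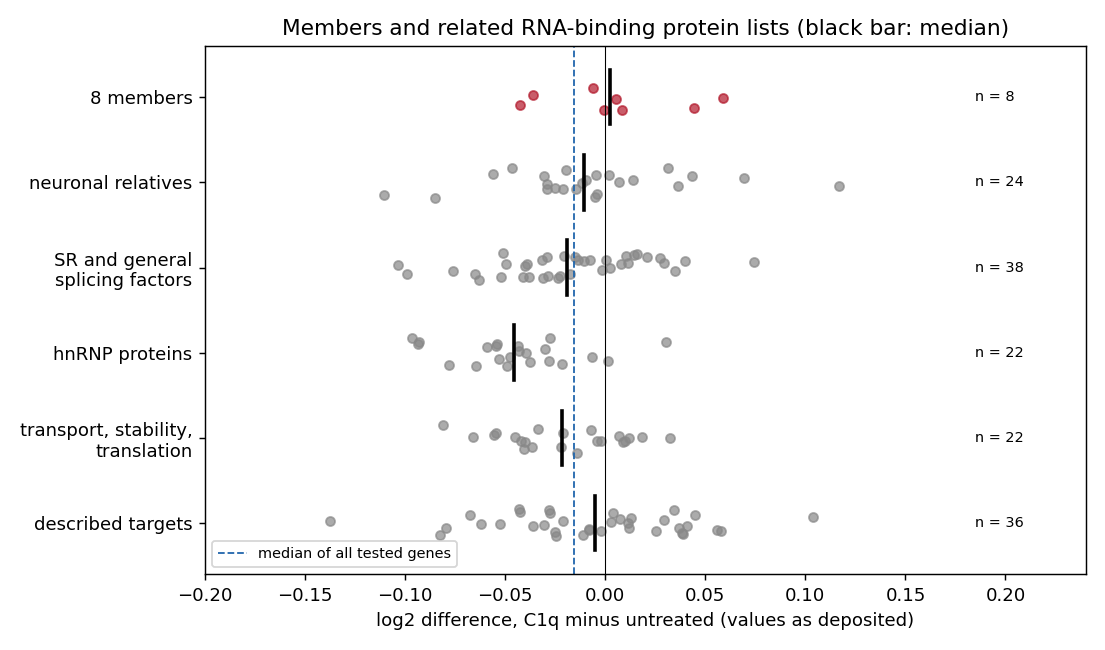
Log2 difference, C1q minus untreated (x axis), of the 8 genes (red) and of the tested genes of the 5 related lists (grey), values as deposited, with list medians as black bars and the median of all tested genes, -0.02, dashed. The hnRNP list has its median at -0.05 with 20 of 22 genes lower, a balance of 18 of 22 under either rescaling, and none of the genes shown passed the test.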

How the data were processed

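The authors deposited linear intensities, with 1 value per probe set and array. How they were summarised and normalized is not given in the sources used here. Per the labels' protocols, total RNA from a column kit was made into biotinylated cRNA for Affymetrix arrays. The platform annotation gave the gene names, and 15279 of 15310 single-gene probe sets were matched to RefSeq by gene ID, with 0 symbols changed. Values were analysed as log2(intensity + 16), as deposited. The brightest 60% of probe sets, above a mean intensity of 94.4, entered limma's lmFit and trended eBayes (limma 3.58.1, R 4.3.3), with Benjamini-Hochberg adjustment over 17529 probe sets and calls under 0.05. The fit was tested on simulated data with changes of known size. A gene in a list was represented by its probe set of highest mean. Named genes were all members, the highest and lowest tested fold change of each list, and each member's nearest pattern. Other paralogs, marker genes, genes with groups apart and Hnrnpa3 were named outside this rule. Members and lists were chosen with earlier results of these data known. Alternatives covered scaling, pseudocount, filter, variance model, array weights, a replicate block and leaving out each array. Promoter windows are RefSeq sequences of GRCr8.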

Additional observations from a re-analysis of the deposited data

How the results depend on the processing

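None of the 8 genes was called under any of 15 alternatives. The smallest adjusted p among them was 0.120, for Ptbp1 in the fit with array weights, where untreated array 3 had a weight of 5.51 and the other 5 arrays 0.335 to 1.81. Quantile normalization gave log2 differences of 0.0184 for Elavl2 and 0.0195 for Elavl4, and median centring 0.0207 and 0.0263, all against negative values as deposited. Array weights gave 0.0140 for Elavl1 and 0.0327 for Elavl4. Ptbp1 and Nova1 stayed positive and Ptbp2 negative under all 15. The filter, variance model and replicate block settings leave these estimates unchanged by construction, so their signs there could not differ. Over all probe sets 130 were called higher and 317 lower with array weights, 9 higher with the replicate block and 1 lower without the filter. One hnRNP gene, Hnrnpa3, was called lower with array weights (log2 difference -0.14, limma adjusted p = 0.0450), and no other gene of the 5 lists was called under any alternative. The count of genes with groups apart was 0 with quantile normalization and 0 with median centring, where 7.52% and 4.16% of all tested probe sets had groups apart.

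With single arrays left out, calls over all probe sets numbered 0 to 28 higher and 0 to 10 lower, with 2 to 7 members with a higher mean and 1 to 4 members with groups apart. In these settings 31.0% to 50.2% of all tested probe sets had a higher mean and 10.9% to 24.8% had groups apart. The log2 difference ran from -0.0109 to 0.0316 for Elavl3, -0.0195 to 0.000945 for Elavl2, -0.0716 to 0.0289 for Elavl1, -0.0404 to 0.0483 for Elavl4, -0.0269 to 0.0324 for Rbfox1 and 0.00321 to 0.114 for Ptbp1. The cause of these changes was not tested. Same-numbered arrays had correlations of their deviations from the group means of 0.01, -0.45 and -0.13, and other pairings ran from -0.37 to 0.45. With 3 arrays per group these values cannot decide whether the numbers pair the samples, and the labels do not say. The replicate block changed no call on a member. With 1 probe set per member, averaging a gene's probe sets could not be run as a separate setting. How the list balances, the ratios and the count of genes with groups apart depend on these settings was examined after seeing the data.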
